A study of Mus musculus with 10 samples.

Results

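The genes of the major histocompatibility complex (MHC) and of antigen presentation were followed across 4 populations of cells sorted from mouse mammary tissue. The set holds every gene whose single annotated symbol starts with H2-, the prefix of the mouse MHC. It also holds B2m, Tap1, Tap2, Tapbp, Psmb8, Psmb9, Psmb10, Cd74, Ciita, Cd1d1, Calr, Canx and Pdia3. This gave 34 genes of the 12394 measured, 21 by the prefix and 13 by name. By role they are 3 classical class I heavy chains, 10 class Ib heavy chains, 7 genes of the class I light chain, peptide supply and loading, 9 class II genes, 1 CD1 gene, 3 general chaperones and H2-Ke6, an enzyme gene named only for its place in the region.

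RNA was hybridised to 10 single-colour arrays, 100 ng per sample, to compare CAF with COF, CSC with TEC, and the 2 tumour populations CAF and CSC that the study asked about together. CAF (n = 3 arrays), CSC (n = 2) and TEC (n = 2) were sorted from mammary gland tumors of FVB/N mice of the genotype WAPCre-DNbcatn;HGF. COF (n = 3), fibroblasts, were sorted from control mammary glands of WT FVB/N mice. In the tumour genotype the promoter of Wap, a milk protein gene of mammary epithelium, drives Cre, and HGF is the ligand of the receptor Met. All 3 tumour populations carry these alleles and COF carry none, so tumour, genotype and cell population cannot be told apart in a comparison with COF. No source used here gives the gates of the sort or the ages of the mice. The labels write TEC in the titles and TEFs in the field for sorted cells. No label says that the arrays of a group come from separate mice, so p-values measure only the spread between these samples, which may be technical.

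Class I molecules pair a heavy chain with beta-2 microglobulin and display peptides, cut by the proteasome in the cytosol, to CD8+ T cells; nearly all nucleated cells make them. Class II molecules pair an alpha with a beta chain and display peptides from endosomes to CD4+ T cells. They are made mainly by dendritic cells, macrophages and B cells, under the transactivator CIITA, and interferon gamma can induce them in fibroblasts and epithelial cells. Class II promoters are known for an X box and a Y box at a fixed spacing, and class I promoters for a kappa B site and an interferon response element. These are not the only elements of either class.

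Windows of proximal promoters are given for H2-Aa, H2-Eb1 and H2-Oa, of class II, and for H2-K1, H2-D1 and B2m. The first 3 genes ranged more widely over the arrays than the last 3. H2-DMa and H2-DMb2 also had a promoter entry and ranged over 6.57 and 3.98 log2 units, against 3.35 for H2-Oa. Neither had GCAAC 30 to 35 bases before ATTGG, the arrangement that the first 3 genes share. Whether these letters go with expression was not tested. The windows are from the promoters that RefSeq gives for the reference strain on GRCm38.p6, and the MHC alleles of FVB/N were not read here. Sequences run 5′ to 3′ on the strand of the gene. Capitals mark CCAAT or its complement ATTGG (the core of the Y box), GCAAC (a part of the X box), GGGATTCC (a part of the class I kappa B site) and, in B2m, a match of the core of the interferon-stimulated response element. The first 3 are class II, at chr17:34287854-34287933 (minus strand), chr17:34305757-34305836 (plus) and chr17:34092269-34092348 (plus), each 110 to 31 bases before the start. The others are class I, at chr17:34000328-34000467 (minus), chr17:35262914-35263053 (plus) and chr2:122147537-122147651 (plus).
H2-Aa: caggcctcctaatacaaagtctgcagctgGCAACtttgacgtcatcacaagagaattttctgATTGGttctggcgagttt
H2-Eb1: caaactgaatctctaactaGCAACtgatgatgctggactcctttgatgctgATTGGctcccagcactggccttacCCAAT
H2-Oa: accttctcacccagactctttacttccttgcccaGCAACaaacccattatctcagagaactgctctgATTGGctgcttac
H2-K1: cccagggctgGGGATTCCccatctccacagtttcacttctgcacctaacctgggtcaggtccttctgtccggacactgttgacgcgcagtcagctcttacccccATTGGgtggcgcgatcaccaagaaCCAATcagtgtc
H2-D1: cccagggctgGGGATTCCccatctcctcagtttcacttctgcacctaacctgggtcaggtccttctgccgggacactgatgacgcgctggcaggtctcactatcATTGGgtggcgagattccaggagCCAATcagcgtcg
B2m: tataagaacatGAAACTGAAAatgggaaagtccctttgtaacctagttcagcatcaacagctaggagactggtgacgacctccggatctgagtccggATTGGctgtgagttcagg
In H2-Aa, H2-Eb1 and H2-Oa the GCAAC began 33, 32 and 33 bases before an ATTGG. That arrangement, with a distance of 30 to 35 bases, was chosen after these letters had been read. It stood in 44 of 32851 promoters of 300 bases (0.134%), 3 of the 5 class II members with a promoter entry among them. GGGATTCC stood in both classical class I members with an entry and in 1.06% of all promoters. CCAAT or ATTGG stood in both of those members too, so these letters do not set class II apart. On either strand, GCAAC alone stood in 35.2%, CCAAT in 37.4% and the core of the interferon-stimulated response element in 3.44% of all promoters. Of the 34 members, 23 had a promoter entry. A match is a description of these letters and not a site.

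The arrays were alike in range, with lower quartiles of 5.05 to 5.26, medians of 6.89 to 7.02 and upper quartiles of 8.70 to 8.83 on the log2 scale of the deposited values. Below, the values of a group are given in the order of its replicate numbers, and all differences are on the log2 scale. Marker lists placed fibroblast RNA in CAF and COF: the median of 9 fibroblast markers was 13.01 to 13.21 in CAF, 8.43 to 8.56 in CSC, 9.13 and 11.68 in TEC, and 13.60 to 13.84 in COF. The median of 10 epithelial markers was 6.95 to 7.28 in CAF, 11.97 and 12.17 in CSC, 9.30 and 9.94 in TEC, and 6.04 to 6.22 in COF. The median of 10 leukocyte markers was 6.60, 6.65 and 7.72 in CAF, 11.33 and 10.78 in CSC, 13.45 and 13.04 in TEC, and 5.22, 5.63 and 5.42 in COF, highest in TEC. Both CSC and TEC therefore held RNA of leukocyte genes beside epithelial RNA, TEC replicate 2 also held fibroblast RNA (Pdgfra 9.80, against 7.02 in replicate 1), and these groups are called here by their labels alone. In bulk samples, fewer cells of a type and less RNA per cell cannot be told apart.

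**Figure D1:**
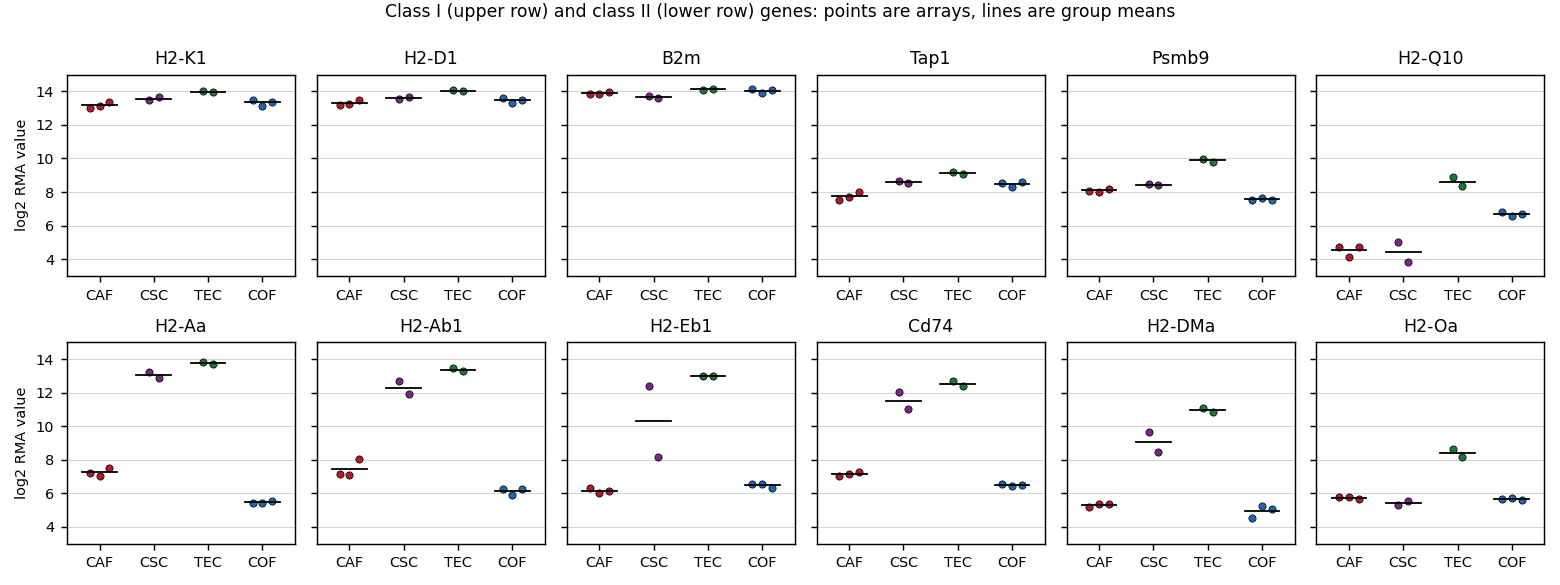
Log2 RMA value of 6 class I genes (upper row) and 6 class II genes (lower row) on each array, by group. Points are arrays and lines are group means. H2-K1, H2-D1 and B2m lie between 13.02 and 14.13 on every array, whereas H2-Aa ranges over 8.38 log2 units between the lowest COF and the highest TEC array. H2-Q10, also in the upper row, ranges over 5.04 log2 units.

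The classical class II chains divided the groups widely. H2-Aa, an alpha chain, had values of 7.19, 7.02 and 7.54 in CAF, 13.22 and 12.90 in CSC, 13.80 and 13.73 in TEC, and 5.46, 5.42 and 5.57 in COF. Its beta chain partner H2-Ab1 had 7.17, 7.12 and 8.05 in CAF, 12.68 and 11.91 in CSC, 13.45 and 13.30 in TEC, and 6.28, 5.92 and 6.28 in COF. Cd74, the invariant chain that guards the peptide groove, had 7.05, 7.16 and 7.30 in CAF, 12.03 and 11.04 in CSC, 12.68 and 12.42 in TEC, and 6.56, 6.46 and 6.52 in COF. For all 3 genes the order was TEC, CSC, CAF and COF from high to low, with no overlap between any groups. The CAF arrays lay nearer to COF than to the other tumour populations.

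Of the 9 class II genes 3 were higher in CAF than in COF and none lower, where 34.8% of all genes passed in either direction and 18.1% were higher. Against COF, CAF had higher H2-Aa by 1.77 ± 0.14 (SE), a 3.40-fold difference (limma, adjusted p = 5.25e-05). H2-Ab1 was higher by 1.28 ± 0.27 (adjusted p = 0.0061), and by 0.98 without CAF replicate 3, its highest array. Both probe sets of H2-Aa and all 3 of H2-Ab1 rose, by less in the others: the second of H2-Aa by 1.06 (adjusted p = 0.0111), and those of H2-Ab1 by 0.89 and 0.71. Cd74 was higher by 0.66 ± 0.22 (adjusted p = 0.0415), but it no longer passed when any 1 CAF or COF array was left out (adjusted p 0.0738 to 0.124) or when each array was centred on its median (0.0521). All COF values of H2-Aa, H2-Ab1 and Cd74 lay under the median of their array, though above its lower quartile. No detection call was used, so whether they are above background is unknown, which limits the fold of H2-Aa. The other 6 class II genes did not pass in this comparison. Their differences ran between -0.34 for H2-Eb1 and 0.36 for H2-DMa. H2-Eb1, the other classical beta chain, had 6.30, 6.01 and 6.15 in CAF and 6.58, 6.56 and 6.34 in COF, with CAF below COF on every array. Its difference of -0.34 had a 95% confidence interval of -2.21 to 1.52, which the spread between the CSC arrays widened, and fitted on the CAF and COF arrays alone it passed (adjusted p = 0.0302).

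Leukocyte and epithelial markers moved with this comparison. Of the 10 leukocyte markers 9 were higher in CAF than in COF and none lower, with a median difference of 1.53, and 6 of 11 macrophage markers were higher. Ptprc, which encodes the leukocyte antigen CD45, had 7.04, 7.35 and 8.88 in CAF and 5.19, 6.57 and 5.78 in COF. Lyz2, a lysozyme gene of myeloid cells, had 9.64, 8.08 and 9.24 in CAF and 5.54, 5.42 and 5.57 in COF. CAF replicate 3, the array with the highest H2-Ab1, also had the highest Ptprc and the highest leukocyte median of the CAF arrays. No dendritic marker was higher in CAF and 1 of 7, Zbtb46, was lower, and none of the 7 B cell markers passed. Of the T cell markers 2 of 7 were higher, of the endothelial markers 2 of 7 were lower, and none of the 9 fibroblast markers passed. Of the 10 epithelial markers 7 were higher and none lower, with a median difference of 1.17. Epcam, an epithelial adhesion molecule, had 7.74, 8.14 and 8.23 in CAF and 5.92, 7.22 and 6.49 in COF. The part of leukocyte or epithelial RNA in the class II values of CAF was not tested.

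In CAF against CSC, 7 of 9 class II genes were lower and none higher, with a median difference of -3.76, where 66.5% of all genes passed and 33.1% were lower. H2-Aa was lower by 56.3-fold (difference -5.82 ± 0.16, adjusted p = 3.29e-08), H2-Ab1 by 28.9-fold (-4.85 ± 0.30) and Cd74 by 20.6-fold (-4.36 ± 0.24). In CAF against TEC, all 9 class II genes were lower, with a median of -5.38, where 67.5% of all genes passed and 28.9% were lower. The size ran between -1.17 ± 0.21 for Ciita (adjusted p = 0.000944) and -6.83 ± 0.92 for H2-Eb1 (adjusted p = 0.000174), and H2-Aa was lower by 91.5-fold. All 10 leukocyte markers and all 11 macrophage markers were lower in CAF than in either CSC or TEC. These comparisons and that of CSC with TEC share arrays.

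In CSC against TEC, 7 of 9 class II genes were lower and none higher, with a median of -1.15, where 46.7% of all genes passed and 20.1% were lower. The differences were -1.01 ± 0.26 for Cd74 (adjusted p = 0.0116), -0.70 ± 0.17 for H2-Aa (0.00889) and -1.07 ± 0.33 for H2-Ab1 (0.0259). Without CSC replicate 2 the differences were -0.52 for Cd74 and -0.69 for H2-Ab1, and without CSC replicate 1 they were -1.51 and -1.46. The 3 calls depended on single arrays: Cd74 did not pass without TEC replicate 1 (adjusted p = 0.0557), H2-Aa without CSC replicate 2 (0.069), and H2-Ab1 without either of them (0.0875 and 0.184). H2-Eb1 set the 2 CSC arrays far apart. It had 12.42 and 8.15 in CSC and 12.99 and 12.97 in TEC, so that CSC replicate 1 lay near TEC and replicate 2 lay between TEC and the fibroblast arrays. The difference of -2.70 ± 1.01 did not pass (adjusted p = 0.0542). It was -0.56 without CSC replicate 2 and -4.83 without CSC replicate 1, and both of those passed (0.0259 and 2.54e-06).

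The genes that load class II molecules parted CSC from TEC further. H2-DMa, a chain of the DM molecule that exchanges the invariant chain fragment for peptide, had 5.19, 5.34 and 5.34 in CAF, 9.67 and 8.44 in CSC, 11.07 and 10.84 in TEC, and 4.51, 5.25 and 5.05 in COF. H2-DMb2, which encodes a DM beta chain, had 5.16, 5.28 and 5.56 in CAF, 6.36 and 5.72 in CSC, 8.98 and 8.27 in TEC, and 5.20, 5.04 and 4.999 in COF. H2-Oa, a chain of the DO molecule that restrains DM, had 5.78, 5.76 and 5.68 in CAF, 5.32 and 5.58 in CSC, 8.67 and 8.16 in TEC, and 5.68, 5.72 and 5.61 in COF. H2-DMa was thus above the CAF and COF arrays in both CSC and TEC, and overlapped between CAF and COF. H2-Oa stood out in TEC alone, where both arrays were above every other array, and its CSC values lay below those of the fibroblasts.

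In CSC against TEC, H2-Oa was 7.84-fold lower (difference -2.97 ± 0.16, adjusted p = 6.23e-06), H2-DMb2 6.01-fold lower (-2.59 ± 0.26, 7.1e-05) and H2-DMa 3.73-fold lower (-1.90 ± 0.36, 0.00215). The CSC values of H2-Oa and H2-DMb2 lay under the median of their array. Whether they are above background is unknown, which limits these folds. In CAF against CSC, H2-DMa was lower (-3.76 ± 0.33, adjusted p = 1.12e-05). H2-DMb2 was also lower (-0.70 ± 0.24, 0.0267), a call lost without CSC replicate 1 (difference -0.38, adjusted p = 0.231) and without CAF replicate 1 or 2. H2-Oa differed by 0.29, with a 95% confidence interval of -0.04 to 0.63, and did not pass. DO is known mainly from B cells and some dendritic cells, and the median of each of these marker lists was highest in TEC. The 7 dendritic markers had medians of 5.20, 5.18 and 5.57 in CAF, 5.90 and 6.24 in CSC, 9.04 and 8.50 in TEC, and 4.84, 5.60 and 5.34 in COF, and all 7 were lower in CSC than in TEC. Of 7 B cell markers 6 were lower in CSC than in TEC, among them Ms4a1 with 4.98 and 4.65 in CSC against 8.12 and 6.89 in TEC. The B cell medians were 5.28 to 5.43 in CAF, 4.98 and 4.70 in CSC, 6.49 and 6.27 in TEC, and 5.41 to 5.67 in COF. All of them lay below the median of the array. In CAF against TEC only 3 of the 7 B cell markers were lower and 1 was higher. Cd79a had 5.74 and 6.27 in TEC, against 5.62 to 5.83 in CAF and 5.67 to 6.05 in COF. Macrophage markers did not follow that order: 4 of 11 were higher in CSC, 3 lower, and C1qa had 12.79 and 12.52 in CSC against 10.85 and 11.24 in TEC. Of 7 T cell markers 5 were lower, of 9 fibroblast markers 4 were lower, and all 10 epithelial markers were higher in CSC. The part of these cell types in the class II values was not tested.

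Ciita, the transactivator of class II genes, was dim. It had 5.11, 5.42 and 5.03 in CAF, 5.91 and 5.70 in CSC, 6.75 and 5.97 in TEC, and 5.04, 4.94 and 4.92 in COF, under the median of the array on all 10 and under the lower quartile on 5. CAF and COF overlapped, and both lay below CSC and TEC. It was lower in CAF than in CSC (-0.61 ± 0.21, adjusted p = 0.0281), a call lost without any 1 of CAF replicates 1 and 3 and CSC replicates 1 and 2. The difference of -0.56 between CSC and TEC did not pass (adjusted p = 0.0745). It was -0.95 and passed without TEC replicate 2 (0.00211), and was -0.17 without TEC replicate 1 (0.470). The second probe set of Ciita differed by -1.27 and passed (0.000279), as did the mean of both (-0.91, 0.00246). H2-Ea, the alpha chain partner of H2-Eb1, was uncertain because its 3 probe sets disagreed. How well they match the H2-Ea allele of FVB/N was not checked here. The probe set with the highest mean had 8.35, 8.14 and 8.29 in CAF, 8.75 and 8.38 in CSC, 9.59 and 9.84 in TEC, and 7.91, 7.96 and 8.03 in COF. A second had 4.49, 4.49 and 4.57 in CAF, 8.30 and 7.54 in CSC, 9.44 and 9.19 in TEC, and 4.25, 4.21 and 4.20 in COF, so its gap between CAF and CSC was -3.40 where the first had -0.31. The third stayed between 2.59 and 2.99 on all arrays.

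**Figure D2:**
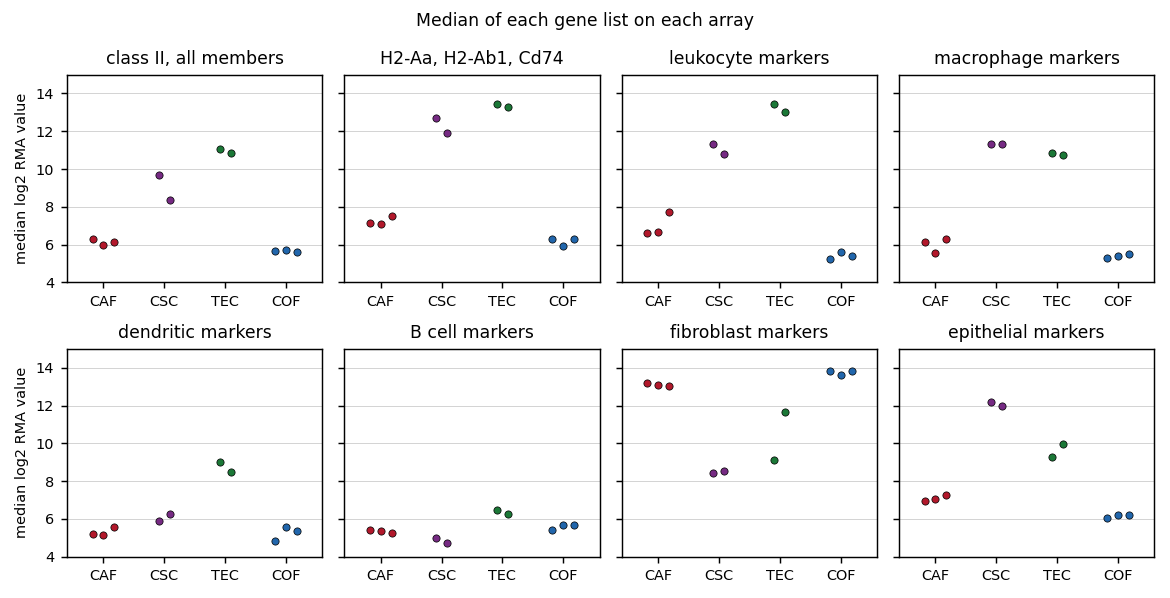
Median log2 RMA value, on each array, of the class II members, of H2-Aa, H2-Ab1 and Cd74, and of 6 lists of cell type markers. Points are arrays. The class II medians and the leukocyte medians are highest on the TEC arrays (10.84 and 11.07 for class II, 13.04 and 13.45 for leukocytes), and the dendritic medians are 8.50 and 9.04 on the TEC arrays and at most 6.24 elsewhere.

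H2-K1, H2-D1 and B2m behaved otherwise: they were high in all groups, and their largest difference in the 4 comparisons was that of H2-K1 in CAF against TEC (-0.82). The third classical gene, H2-D4, was dim and is described with the class Ib genes. H2-K1, a classical heavy chain, had 13.02, 13.12 and 13.36 in CAF, 13.47 and 13.64 in CSC, 14.03 and 13.94 in TEC, and 13.49, 13.14 and 13.38 in COF. H2-D1, the heavy chain of the D locus, had 13.19, 13.24 and 13.46 in CAF, 13.56 and 13.67 in CSC, 14.07 and 13.99 in TEC, and 13.63, 13.29 and 13.51 in COF. B2m, the light chain that all class I molecules need, had 13.84, 13.84 and 13.95 in CAF, 13.71 and 13.62 in CSC, 14.10 and 14.12 in TEC, and 14.13, 13.92 and 14.05 in COF. CAF and COF overlapped for all 3 genes, and TEC had the highest heavy chain values. All values were above the upper quartile of their array and near its maximum (14.68 to 15.04).

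H2-K1, H2-D1 and B2m did not pass in CAF against COF. H2-K1 differed by -0.17 (95% confidence interval -0.45 to 0.11), H2-D1 by -0.18 (-0.43 to 0.08) and B2m by -0.15 (-0.35 to 0.04). With array weights all 3 passed as lower (-0.25, -0.25 and -0.19, adjusted p 0.00223, 0.00144 and 0.00129). The probe sets of H2-D1 disagreed: of 9, none was higher, 2 were lower and 7 did not pass, with differences between -0.90 and 0.01. Without probe sets ending in _x_at or _s_at, H2-D1 passed at -0.90 (adjusted p = 0.0176). Heavy chain genes are near copies of each other, and which of them a probe set reads is uncertain. In CAF against TEC, H2-K1 (-0.82 ± 0.14, adjusted p = 0.000648) and H2-D1 (-0.73 ± 0.13, 0.000721) were lower, and neither call was lost when 1 array was left out. In CSC against TEC, H2-K1 (-0.43 ± 0.15, 0.043), H2-D1 (-0.42 ± 0.14, 0.032) and B2m (-0.44 ± 0.11, 0.00759) were lower. The H2-K1 call was lost without any 1 of the 4 arrays (adjusted p 0.0623 to 0.175) and that of H2-D1 without any but TEC replicate 2, whereas that of B2m was kept. In CAF against CSC, H2-K1 was lower (-0.39 ± 0.14, 0.0315, lost without CAF replicate 1 or 2 or CSC replicate 2). There H2-D1 (-0.31, adjusted p = 0.0523) and B2m (0.21, adjusted p = 0.081) did not pass.

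The class Ib genes, heavy chains of the Q, T and M regions that vary less between strains and are less widely expressed, went in several directions. H2-Q10, a secreted molecule known from the liver, had 4.73, 4.15 and 4.72 in CAF, 5.04 and 3.85 in CSC, 8.89 and 8.36 in TEC, and 6.79, 6.60 and 6.72 in COF. H2-Q2 had 2.57, 2.69 and 2.79 in CAF, 5.98 and 6.99 in CSC, 3.38 and 3.55 in TEC, and 2.79, 2.70 and 2.83 in COF. H2-T24 had 4.88, 4.44 and 4.72 in CAF, 5.15 and 4.57 in CSC, 6.09 and 5.90 in TEC, and 6.19, 5.71 and 5.77 in COF. H2-Q10 and H2-T24 were both low in CAF and CSC and higher in TEC and COF without overlap, and H2-Q2 stood above all other arrays in CSC alone.

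Against COF, CAF had lower H2-Q10 (-2.17 ± 0.29, adjusted p = 0.000619) and lower H2-T24 (-1.21 ± 0.19, 0.00138). The other 8 class Ib genes did not pass. Against TEC, CSC had lower H2-Q10 (-4.18 ± 0.36, 3.2e-05) and lower H2-T24 (-1.14 ± 0.23, 0.00347), and higher H2-Q2 by 3.02 ± 0.26 (3.37e-05). CAF had lower H2-Q2 than CSC (-3.80 ± 0.24, 1.61e-06). H2-Q10, H2-Q2 and H2-T24 are dim: H2-Q10 was under the lower quartile on 5 arrays, H2-Q2 on 8 and H2-T24 on 4. No detection call per probe set was used here, so whether their low values are above background is unknown, and no fold is given for them.

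H2-Q5 and H2-M3 were low in CSC. H2-Q5 had 7.81, 8.10 and 8.16 in CAF, 5.89 and 6.40 in CSC, 8.05 and 7.81 in TEC, and 8.61, 8.19 and 8.48 in COF. H2-M3, which presents bacterial peptides with a formyl group, had 9.22, 9.14 and 9.25 in CAF, 8.52 and 7.77 in CSC, 9.28 and 9.34 in TEC, and 9.51, 9.24 and 9.43 in COF. Both CSC arrays lay below all other arrays for both genes. Against TEC, CSC had 3.44-fold lower H2-Q5 (-1.78 ± 0.21, adjusted p = 0.000144) and 2.24-fold lower H2-M3 (-1.16 ± 0.21, 0.00164). CAF had higher H2-Q5 than CSC by 1.88 ± 0.19 (2.75e-05) and higher H2-M3 by 1.06 ± 0.19 (0.000984), or 0.68 without CSC replicate 2. H2-M10.1 and the classical gene H2-D4 had CAF and COF above CSC and TEC. H2-M10.1 had 6.06, 6.05 and 5.87 in CAF, 4.84 and 4.50 in CSC, 4.95 and 4.65 in TEC, and 6.25, 6.22 and 6.43 in COF, and H2-D4 had 6.13 to 6.36 in CAF, 5.14 and 5.11 in CSC, 5.23 and 5.21 in TEC, and 6.26 to 6.54 in COF. CAF had higher H2-M10.1 than CSC by 1.32 ± 0.14 (3.95e-05) and higher H2-D4 by 1.12 ± 0.11 (2.4e-05).

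The remaining class Ib genes, H2-Bl, H2-T18, H2-T3 and H2-M9, were under the median of the array on all 10 arrays. H2-Bl and H2-T18 were lower in CAF than in CSC and TEC (differences -0.73 to -0.51). H2-T3 was higher in CAF than in CSC by 0.49 (adjusted p = 0.00597), but its second probe set, read without those ending in _x_at or _s_at, gave -0.01. H2-M9 passed in no comparison.

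The inducible proteasome subunits, which replace constitutive subunits under interferon gamma, were the class I genes that rose in CAF. Psmb8 had 9.75, 9.78 and 10.001 in CAF, 10.41 and 10.30 in CSC, 11.05 and 11.13 in TEC, and 9.31, 9.35 and 9.30 in COF. Psmb9 had 8.07, 8.01 and 8.20 in CAF, 8.45 and 8.44 in CSC, 9.95 and 9.81 in TEC, and 7.52, 7.65 and 7.51 in COF. Psmb10 had 9.54, 9.53 and 9.52 in CAF, 9.42 and 9.19 in CSC, 9.98 and 10.02 in TEC, and 8.97, 9.003 and 8.96 in COF. All 3 were highest in TEC and lowest in COF with no overlap between CAF and COF, and CAF stood between COF and CSC for Psmb8 and Psmb9 but above CSC for Psmb10.

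Against COF, CAF had higher Psmb8 by 0.52 ± 0.09 (1.44-fold, adjusted p = 0.0023), Psmb9 by 0.53 ± 0.09 (1.45-fold, 0.00172) and Psmb10 by 0.55 ± 0.08 (1.47-fold, 0.0011). These 3 calls were kept when any 1 array was left out. Against TEC, CSC had 2.70-fold lower Psmb9 (-1.44 ± 0.11, 1.72e-05), lower Psmb8 (-0.74 ± 0.11, 0.000629) and lower Psmb10 (-0.70 ± 0.10, 0.000536). Leukocytes are known to carry these subunits, and their markers were higher in CAF than in COF and lower in CSC than in TEC. Epithelial markers were higher in both comparisons. The part of either in these values was not tested. The constitutive subunits that they replace passed as lower in neither comparison. Psmb5, which Psmb8 replaces, had 10.40, 10.38 and 10.42 in CAF, 10.97 and 10.90 in CSC, 10.41 and 10.58 in TEC, and 9.78, 10.36 and 9.94 in COF. Psmb7, which Psmb10 replaces, had 7.92, 7.89 and 7.95 in CAF, 9.67 and 9.38 in CSC, 9.10 and 8.92 in TEC, and 8.04, 8.19 and 7.96 in COF. Psmb6, which Psmb9 replaces, had 10.47, 10.56 and 10.65 in CAF, 11.25 and 11.16 in CSC, 10.66 and 10.66 in TEC, and 10.17, 10.57 and 10.22 in COF. Psmb5, Psmb6 and Psmb7 did not pass in CAF against COF (0.38, 0.24 and -0.14, adjusted p 0.0627, 0.142 and 0.354). The CAF and COF arrays of Psmb5 did not overlap. Psmb6 and Psmb7 were higher in CSC than in TEC, by 0.54 ± 0.14 (0.0107) and 0.51 ± 0.13 (0.00992), and Psmb5 did not pass there (0.44, 0.0581).

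**Figure D3:**
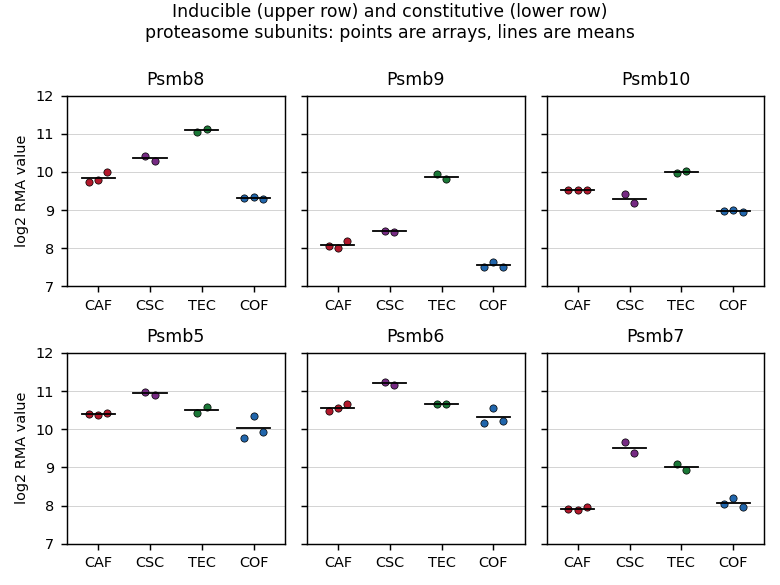
Log2 RMA value of the inducible proteasome subunits (upper row) and the constitutive ones (lower row) on each array, by group. Points are arrays and lines are group means. Psmb8, Psmb9 and Psmb10 are highest on the TEC arrays (9.81 to 11.13), and Psmb5, Psmb6 and Psmb7 are highest on the CSC arrays (9.38 to 11.25).

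In CAF against COF the peptide transporter was not higher, and in CSC against TEC it was lower, as the inducible subunits were. Tap1, a subunit of the transporter into the endoplasmic reticulum, had 7.52, 7.73 and 8.02 in CAF, 8.66 and 8.52 in CSC, 9.20 and 9.06 in TEC, and 8.53, 8.30 and 8.59 in COF. Its partner Tap2 had 8.93, 8.92 and 9.05 in CAF, 8.92 and 8.98 in CSC, 9.40 and 9.24 in TEC, and 9.09, 8.91 and 9.03 in COF. Tapbp, or tapasin, which bridges the transporter and the heavy chain, had 11.25, 11.30 and 11.46 in CAF, 11.04 and 11.04 in CSC, 11.64 and 11.71 in TEC, and 11.51, 11.21 and 11.44 in COF. Tap1 was below all other arrays in CAF, whereas CAF and COF overlapped for Tap2 and Tapbp. Against COF, CAF had 1.64-fold lower Tap1 (-0.71 ± 0.14, adjusted p = 0.00379). Tap2 differed by -0.04 and Tapbp by -0.05 (adjusted p 0.777 and 0.761). Of the 4 probe sets of Tap1 this one, the brightest, was the only one that passed here, and the mean of all 4 differed by -0.20 (adjusted p = 0.138). Against TEC, CSC had lower Tapbp (-0.64 ± 0.12, 0.00262), Tap1 (-0.54 ± 0.17, 0.0263, lost without TEC replicate 1 or CSC replicate 2) and Tap2 (-0.37 ± 0.11, 0.0216, lost without TEC replicate 1, CSC replicate 1 or CSC replicate 2).

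Tap1, Psmb8, Psmb9 and Tap2 are neighbours within the class II region of chromosome 17, between H2-DMb2 and H2-Ab1 in the gene order of RefSeq. In CAF against COF, neighbours in this stretch thus differed in direction, with Psmb9 and Psmb8 higher, Tap1 between them lower, and H2-Ab1 and H2-Aa higher. Of the 34 members 26 are on chromosome 17.

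Of the chaperones of the endoplasmic reticulum, which fold many glycoproteins beside class I, Pdia3 and Calr were highest on the CAF arrays and Canx on the CAF and CSC arrays. Pdia3, a disulfide isomerase of the peptide loading complex, had 12.97, 12.95 and 12.86 in CAF, 12.28 and 12.14 in CSC, 11.50 and 11.92 in TEC, and 12.34, 12.67 and 12.40 in COF, with all CAF arrays above all others. It was higher in CAF than in COF by 0.46 ± 0.13 (adjusted p = 0.0236), a call lost without any 1 of CAF replicates 1 and 2 and COF replicates 1 and 3 (adjusted p up to 0.0892). It was higher in CAF than in CSC by 0.72 ± 0.15 (0.00197) and than in TEC by 1.22 ± 0.15 (8.34e-05). Calr, calreticulin, had 13.02, 12.97 and 13.03 in CAF, 12.83 and 12.71 in CSC, 12.30 and 12.74 in TEC, and 12.61, 12.95 and 12.69 in COF. Canx, calnexin, had 11.99, 11.997 and 11.98 in CAF, 11.99 and 12.05 in CSC, 11.45 and 11.69 in TEC, and 11.64, 11.87 and 11.68 in COF. Neither passed in CAF against COF (0.26 each, adjusted p 0.169 and 0.0663), although all CAF arrays lay above all COF arrays. Both were higher in CAF than in TEC, by 0.49 ± 0.15 and 0.42 ± 0.11, calls lost without TEC replicate 1. Cd1d1, which presents lipids to natural killer T cells, had 8.17, 8.13 and 7.95 in CAF, 8.81 and 8.63 in CSC, 8.30 and 8.14 in TEC, and 8.94, 8.12 and 8.79 in COF. COF replicate 2 lay within the CAF range, and the difference of -0.53 between CAF and COF did not pass (adjusted p = 0.0607) but reached -0.78 and passed without that array (0.00138). H2-Ke6, the enzyme gene, had 7.49, 7.52 and 7.61 in CAF, 8.70 and 9.04 in CSC, 8.19 and 8.02 in TEC, and 7.67, 7.57 and 7.65 in COF, and was higher in CSC than in TEC by 0.77 ± 0.13 (0.00114).

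Over the members as a whole, 10 of 34 passed in CAF against COF, 7 higher and 3 lower (29.4%), where 34.8% of all genes passed, 18.1% higher and 16.7% lower. With array weights 28 members passed, 13 higher and 15 lower, and 8632 of all genes. By class, 3 of 20 class I genes were higher and 3 lower (median -0.17), and 3 of 9 class II genes were higher (median 0.29), against a median of 0.02 over all genes. In CSC against TEC, 25 members passed (73.5%), 4 higher and 21 lower, where 46.7% of all genes passed, 26.6% higher and 20.1% lower. Of class I genes 1 was higher and 14 lower there, with a median of -0.43 where all genes had 0.00. A fit without TEC replicate 2, which held fibroblast RNA, leaves 1 TEC array, so no count of that fit is given.

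In CAF against CSC, 23 members passed (67.6%), 7 higher and 16 lower, where 66.5% of all genes passed, 33.4% higher and 33.1% lower. With each array centred on its median, more members were higher and fewer lower. The share of all genes under that setting is not given here. Class I genes divided evenly, 6 higher and 7 lower with a median of 0.05, and after centring more of them were higher than lower. Class II genes had a median of -3.76 where all genes had 0.01. In CAF against TEC, 28 members passed (82.4%), 5 higher and 23 lower, where 67.5% of all genes passed, 38.6% higher and 28.9% lower. Class I genes had a median of -0.59, with 2 higher and 13 lower, and all genes had a median of 0.12.

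**Figure D4:**
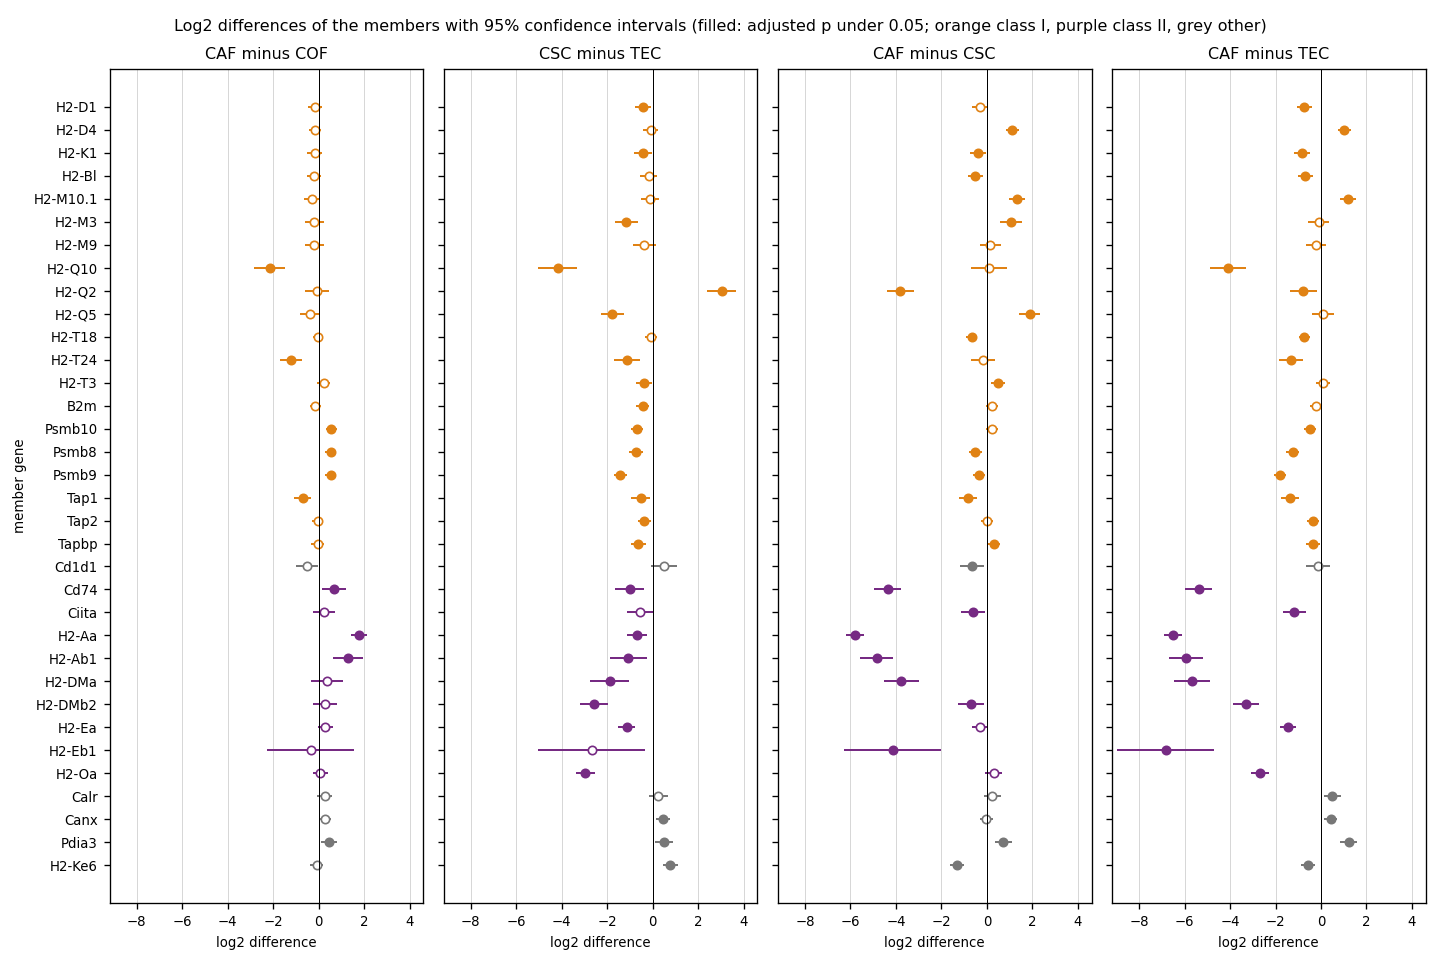
Log2 difference of each member in the 4 comparisons, with 95% confidence intervals. Filled points had a limma adjusted p under 0.05 over all genes; orange marks class I, purple class II and grey the others. The class II points spread from -6.83 to 1.77 across the comparisons. The class I points spread from -4.18 for H2-Q10 to 3.02 for H2-Q2, both in CSC against TEC. Among them H2-K1, H2-D1 and B2m, which are near the top of the scale, stay between -0.82 and 0.21.

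Genes that work with these members, a list of 41 of which 37 were measured, gave 6 higher and 10 lower in CAF against COF (43.2% of the list, where 34.8% of all genes passed, 18.1% higher and 16.7% lower). Between CSC and TEC 4 were higher and 17 lower in CSC (56.8%, against 46.7% of all genes, 26.6% higher and 20.1% lower). In CAF against CSC 10 were higher and 14 lower (64.9%, against 66.5%), and in CAF against TEC 8 and 22 (81.1%, against 67.5%). Nlrc5, the class I transactivator, had no probe set with a single symbol. Ctss, cathepsin S, which cuts the invariant chain, had 9.58, 8.67 and 9.82 in CAF, 13.64 and 13.39 in CSC, 13.82 and 13.87 in TEC, and 5.23, 5.72 and 5.13 in COF. It was higher in CAF than in COF by 4.001 ± 0.28 (adjusted p = 2.88e-05), the largest difference of the list in that comparison, and like Lyz2 it is a gene of myeloid cells. Lgmn, an endosomal protease, was higher by 0.79 ± 0.11 (0.00072). Ifi30, a thiol reductase of the same compartment, went the other way, with 9.65, 9.52 and 9.60 in CAF, 11.49 and 11.36 in CSC, 11.88 and 11.88 in TEC, and 11.31, 10.85 and 11.23 in COF. It was lower in CAF than in COF (-1.54 ± 0.12, adjusted p = 5.18e-05).

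Of the regulators in the list, Irf1, Jak1, Socs1, Rfxap, Nfya, Nfyc and Creb1 were lower in CAF than in COF and none was higher. Irf2 (-0.58), Irf8 (0.18), Ifngr1 (0.01), Ifngr2 (0.52), Jak2 (0.18), Rfxank (0.18), Nfyb (-0.14) and Rfx5 (-0.02) did not pass. Irf1, an interferon-induced activator of class I genes, had 9.31, 9.39 and 9.87 in CAF, 9.56 and 9.66 in CSC, 10.56 and 10.34 in TEC, and 11.17, 10.64 and 11.00 in COF. It was 2.66-fold lower in CAF than in COF (-1.41 ± 0.18, adjusted p = 0.000416), with no overlap. Rfxap, a subunit of the RFX complex on the X box, was lower (-1.22 ± 0.11, 0.000104), and so was Jak1, a kinase of interferon receptors (-0.77 ± 0.13, 0.00197). Rfx5, another RFX subunit, passed in no comparison (differences -0.24 to 0.01). Cd274, or PD-L1, had 6.58, 6.66 and 7.11 in CAF, 8.62 and 8.43 in CSC, 11.32 and 10.71 in TEC, and 8.86, 7.77 and 8.54 in COF, and was lower in CAF than in COF (-1.61 ± 0.28, 0.00231). Thus in CAF against COF, H2-Aa, H2-Ab1, Ctss and the inducible proteasome were higher while Irf1, Tap1, Ifi30 and Cd274 were lower. In CSC against TEC the smallest adjusted p of the list were those of Pdcd1lg2 (-2.54 ± 0.19), Jak2 (-2.04 ± 0.15), Cd80 (-2.76 ± 0.21), Ifngr1 (-1.53 ± 0.16), Icosl (-1.47 ± 0.15) and Tapbpl (-0.98 ± 0.13), all lower. Cd86, a costimulator of antigen-presenting cells, had 3.80, 3.79 and 3.81 in CAF, 8.77 and 8.23 in CSC, 9.82 and 9.59 in TEC, and 3.74, 3.74 and 3.67 in COF. It lay under the lower quartile on all CAF and COF arrays.

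Over the 10 arrays, the genes outside the set whose values were most like the mean of H2-Aa, H2-Ab1, H2-Eb1 and Cd74 were Dpys (Pearson's r = 0.997), Ms4a6c (0.996) and Lrrfip1 (0.995). Dpys was dim, with values of 3.94 to 6.06, below the median of every array. Most like the mean of H2-K1, H2-D1 and B2m were Slfn8 (0.987), Egln2 (0.961) and Atp6v1f (0.959). The arrays fall into 4 groups, so these values mainly describe the order of the groups and carry no test.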

How the data were processed

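The values are those the authors deposited for 10 arrays, on the log2 scale, for 22690 probe sets. Per the submitters' processing notes RMA was used. Neither its version nor a joint normalization of the arrays is stated in the sources read here. Groups and replicate numbers come from the labels. The annotation gives 20393 probe sets 1 symbol, 691 several and 1606 none, and only the first were used, with 1 probe set a gene (the highest mean over all arrays). Among the members' symbols, 62 probe sets were used or compared and 14 shared by several symbols were set aside.

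A linear model with a term for the group alone was fitted to 12394 genes in limma 3.58.1 (R 4.3.3; lmFit, eBayes), with 1 estimate of the spread from all 10 arrays. Two-sided p-values were adjusted by Benjamini-Hochberg over all genes of each contrast, 0.05 was the threshold, and intervals are 95% confidence intervals. The number of arrays limits the precision. Members, lists and the rule for naming genes (the smallest adjusted p of each class, and the main genes of each step whatever their values) were chosen with earlier results of these data known. Alternatives changed the normalization, probe set rule, filter, variance model, arrays and threshold. Scripts were tested on simulated data. Replicate numbers do not pair the samples: same-numbered CAF and COF arrays deviated with correlations of 0.13, 0.01 and -0.08, and CSC and TEC arrays with -0.06.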

Additional observations from a re-analysis of the deposited data

Results flagged for a closer look

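Probe sets that the annotation assigns to several symbols were used in no comparison, and 4 of them stood above the COF arrays by at least 1 log2 unit in a tumour population, counted as the lowest array of the population minus the highest COF array. The 2 probe sets shared by H2-DMb2 and H2-DMb1, beta chains of the DM molecule, did so in both CSC and TEC. The first had gaps of 2.99 in CSC (7.72 and 8.74) and 5.03 in TEC (9.76 and 9.98), against COF values of 4.25 to 4.73. The second had gaps of 2.48 in CSC and 4.52 in TEC, against 5.82 to 5.92 in COF. H2-DMb1 has no probe set of its own here, so these values cannot be given to either gene. The probe set shared by H2-Q6 and H2-Q8 had gaps of 1.01 in CSC (9.47 and 9.70) and 1.93 in TEC (10.39 and 10.61), against 7.59 to 8.46 in COF. The probe set shared by Gm38417, H2-Q2 and H2-D1 had a gap of 1.07 in TEC (6.43 and 7.34), against 5.18 to 5.36 in COF. These gaps were not tested.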

How the results depend on the processing

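Counts of genes that passed moved by over 1.5 times as follows. In CAF against COF, array weights gave 28 members (13 higher, 15 lower), 16 class I and 7 class II genes, with 8632 of all genes. The fit on those 2 groups gave 5 class II genes (4 higher, 1 lower), where 5686 of all genes passed (3033 higher, 2653 lower). An adjusted p under 0.01 left 2638 of all genes, averaging the closest pairs of arrays 1805, and a difference of at least 1 left 1030 with 4 members and 2 class I genes. In CSC against TEC, the fit on those 2 groups gave 3013 genes, 14 members, 9 class I and 4 class II genes. Array weights and an adjusted p under 0.01 also gave fewer members there, and array weights fewer class I genes. A difference of at least 1 gave 2377 genes, 12 members and 6 class I genes. That last threshold left 3417 genes, 11 members and 5 class I genes in CAF against CSC, and 3586, 17 and 7 in CAF against TEC. Without the dimmest 30% of genes, fewer class I genes passed in CAF against TEC, fewer being tested.

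Leaving out 1 array gave 8 to 11 members in CAF against COF, 16 (without TEC replicate 1) to 26 in CSC against TEC, 19 to 21 in CAF against CSC and 25 to 28 in CAF against TEC. Where this left a group with 1 array, that array was assumed to vary like the other groups. In CAF against COF, 2980 (without COF replicate 3) to 4316 (without COF replicate 2) of all genes passed. For the other comparisons no range of counts is given, for members or for all genes, because some of their fits leave 1 array in a group. Among differences that passed in either setting, the direction turned in 3 cases: Tap1 in CAF against CSC was 0.0408 with the mean of all probe sets, and H2-T3, without probe sets ending in _x_at or _s_at, was -0.0106 in CAF against CSC and -0.323 in CAF against TEC. The cause was not tested. A further 12 differences that passed in neither setting changed sign, 9 of them when 1 array was left out. Of the 34 members, 9, 15, 16 and 20 kept their call under every alternative in CAF against COF, CSC against TEC, CAF against CSC and CAF against TEC. With the replicate number as a block (replicate block), 10 members passed in CAF against COF, where 3947 of all genes passed. Whether the replicate numbers pair the samples is not known. The number of arrays limits all results, and low signal those of Ciita, H2-Q10, H2-Q2 and H2-M9, which were under the lower quartile on 5, 5, 8 and 9 arrays. H2-DMb2, H2-M10.1 and H2-T24 were under it on 4 arrays each and H2-DMa on 3.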

Other observations

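A probe set shared by H2-T23, the gene of the Qa-1 molecule, and H2-T-ps had 9.62, 9.55 and 9.69 in CAF, 11.82 and 9.59 in CSC, 11.32 and 11.54 in TEC, and 11.48, 11.06 and 11.33 in COF. All CAF arrays lay below all COF and TEC arrays. The 2 CSC arrays were apart, replicate 1 among the high arrays and replicate 2 among the CAF values, and these are the arrays that H2-Eb1 also set apart (12.42 and 8.15). A second probe set of the same 2 symbols had 5.37, 4.40 and 4.98 in CAF, 5.10 and 4.49 in CSC, 5.52 and 5.17 in TEC, and 5.73, 5.93 and 5.65 in COF.

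A probe set shared by H2-Ob, which encodes the DO beta chain, and Gm20506 had 5.77, 5.77 and 5.71 in CAF, 6.06 and 5.64 in CSC, 7.001 and 6.45 in TEC, and 5.77, 5.72 and 5.82 in COF, highest in TEC like H2-Oa. None of these values was tested.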
